A study of Mus musculus with 6 samples.

Results

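TOB, BTG and Schlafen genes encode proteins known to restrain cell growth, and 9 of them (Tob1, Tob2, Btg1, Btg2, Btg3, Slfn1, Slfn2, Slfn3 and Slfn4) were followed here in CD8 T cells that were made to keep expressing KLF2. The members are all probe sets of the array that are annotated to exactly 1 gene, that gene being one of the 9. This gave 17 probe sets of 8 genes, out of 45037 probe sets and 18193 genes measured. Btg3 has no value here, because its only probe set is also annotated to Gm7334, and a further probe set shared by Slfn3 and Slfn4 was left out for the same reason. The genes were picked with their difference between these same arrays already known, so their differences, intervals and calls are given below as a description of one fit to all probe sets, and no call of a member is offered as a test of that gene.

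TOB and BTG proteins share an N-terminal domain through which they bind the deadenylases of the CCR4-NOT complex, and by bringing this complex to mRNAs they shorten poly(A) tails and speed mRNA decay. In mice Btg1 and Btg2 help to keep naive T cells quiescent, and TOB1 was described in human T cells as a brake on activation. Schlafen genes take their name from the German for sleeping. Slfn1 and Slfn2 are expressed in resting mouse T cells and decline on activation, and mice with a defective Slfn2 have T cells that cannot maintain quiescence.

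The samples were 3 arrays of GFP-KLF2pos cells, transduced with a retrovirus for a GFP-KLF2 fusion protein, and 3 arrays of GFPpos cells, transduced with the empty vector evGFP. All cells came from C57BL/6 mice of 8 to 12 weeks that carried the P14 LCMV T cell receptor transgene, and they shared every other step. Splenocytes received the LCMV peptide for 48 hours, were transduced 18 hours after its addition, spent a further 48 hours in IL-2 and were sorted for GFP on day 4. The fusion protein was expressed from a viral vector in activated cells and carried a GFP tag, which limits it as a model of endogenous KLF2 in resting cells. The probe set of Klf2 reads sequence that is absent from the construct, so the labels could not be checked by it.

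Levels are log2 intensities, 1 value per probe set and array, as normalised by the authors. A probe set is said to be called when limma, fitted to all 45037 probe sets, gave an adjusted p under 0.046, and the spread between arrays is the only error that 3 arrays per group can show. The labels name the arrays of a group biological replicates. The lower quartile of probe sets lay at 4.18 to 4.25 and the brightest probe set at 14.97 to 15.04 in the 6 arrays. Defining markers of CD8 T cells were bright in both groups: Cd8b1 averaged 13.32 ± 0.02 in GFP-KLF2pos and 12.86 ± 0.08 in GFPpos cells, and Cd3d averaged 13.61 ± 0.03 in GFP-KLF2pos and 13.58 ± 0.07 in GFPpos cells (SD, n = 3 each). Of 9 such markers Cd8b1 was called higher and none was called lower at 0.046, 3 having a higher and 6 a lower mean in GFP-KLF2pos cells. Cd5 differed most of them, with 7.92, 6.87 and 7.97 in GFP-KLF2pos and 8.999, 8.48 and 8.62 in GFPpos arrays, without overlap (log2 difference -1.12, adjusted p = 0.0493). Markers of myeloid cells (10 genes), granulocytes (7), B cells (5) and erythroid cells (2) had no gene called, while 1 of 4 NK cell markers, Tyrobp, and 1 of 4 CD4 T cell markers, Zbtb7b, were called higher. Of the B cell markers, though, 4 had a higher and 1 a lower mean in GFP-KLF2pos cells (median log2 difference 0.31). Of the granulocyte markers 5 had a higher and 2 a lower mean (0.11).

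The upstream sequences of 4 members are shown because these genes cover the range of responses: Tob1 with the largest difference, its close relative Tob2 with the opposite sign, Btg1, and Slfn2 from the Schlafen cluster. Each is the 250 bases before the annotated transcription start, from RefSeq on GRCm38.p6, written along the strand of the gene. Capitals mark matches to CACCC on either strand, the core of the box that KLF factors are known to bind.
Tob1, chr11:94211204-94211453, plus strand: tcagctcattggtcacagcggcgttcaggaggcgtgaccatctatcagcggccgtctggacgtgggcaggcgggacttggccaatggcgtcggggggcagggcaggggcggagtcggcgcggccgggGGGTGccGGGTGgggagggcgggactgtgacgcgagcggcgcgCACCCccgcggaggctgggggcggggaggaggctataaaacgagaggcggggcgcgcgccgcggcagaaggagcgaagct
Tob2, chr15:81858327-81858576, minus strand: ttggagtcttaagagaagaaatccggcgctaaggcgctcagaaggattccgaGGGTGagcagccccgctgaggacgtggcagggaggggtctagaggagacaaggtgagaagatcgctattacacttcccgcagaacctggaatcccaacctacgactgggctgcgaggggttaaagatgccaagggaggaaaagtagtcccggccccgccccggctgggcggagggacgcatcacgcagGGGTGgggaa
Btg1, chr10:96616751-96617000, plus strand: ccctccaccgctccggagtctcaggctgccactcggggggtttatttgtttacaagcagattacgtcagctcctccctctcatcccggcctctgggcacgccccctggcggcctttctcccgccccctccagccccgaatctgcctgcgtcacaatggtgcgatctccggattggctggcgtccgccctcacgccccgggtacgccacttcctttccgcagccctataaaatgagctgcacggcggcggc
Slfn2, chr11:83064862-83065111, plus strand: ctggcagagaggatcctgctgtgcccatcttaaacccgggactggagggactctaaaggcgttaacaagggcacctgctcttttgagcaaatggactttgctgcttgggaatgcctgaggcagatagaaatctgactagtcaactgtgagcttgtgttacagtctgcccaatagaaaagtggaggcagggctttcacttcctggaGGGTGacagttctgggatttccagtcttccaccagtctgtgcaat

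The Tob1 window holds 3 matches to CACCC, the Tob2 window 2, the Slfn2 window 1 and the Btg1 window 0. The upstream windows of all 9 genes were found in the table, and 5 of the genes (Tob1, Tob2, Btg3, Slfn2 and Slfn3) have at least 1 match. Of all 32851 windows of the same length, 52.0% have one, so the motif is common. Both TOB genes have it. The forkhead motif GTAAACA, searched on both strands, is found in 3.2% of all windows and in 1 member, Btg1. The TATA box letters TATAAA are found in 12.4% of windows and in Tob1, Btg1 and Slfn4. No match of one motif overlaps a match of another in these windows. A match is only a run of letters, and binding of any factor was not measured.

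Tob1 showed the largest difference of the 9 genes. Its brightest probe set read 12.13, 12.05 and 11.65 in GFP-KLF2pos replicates 1, 2 and 3, against 8.91, 9.21 and 9.13 in GFPpos replicates 1, 2 and 3. Every GFP-KLF2pos array thus lay more than 2 log2 units above every GFPpos array. The means were 11.94 ± 0.25 in GFP-KLF2pos and 9.08 ± 0.15 in GFPpos cells (SD, n = 3 each), a log2 difference of 2.86 (95% confidence interval 2.53 to 3.19) or 7.27-fold. A second, dimmer Tob1 probe set read 6.78, 6.68 and 6.34 in GFP-KLF2pos and 5.95, 5.91 and 5.55 in GFPpos arrays, a log2 difference of 0.79 (0.44 to 1.14). Both probe sets of the gene were higher without overlap between groups, but the sizes, 2.86 and 0.79, were far apart, and their mean differed by 1.83. In bulk RNA, fewer cells expressing a gene and less RNA per cell cannot be told apart. The call of the second was lost without GFP-KLF2pos replicate 1 or 2 or GFPpos replicate 2, whereas the brightest was called with any single array left out. With the replicate number added to the fit as a block, both were called.

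Tob2, the other TOB gene, which also recruits deadenylases, lay lower in GFP-KLF2pos cells at most of its 5 probe sets. The brightest read 9.91, 10.04 and 9.72 in GFP-KLF2pos against 10.32, 10.33 and 10.14 in GFPpos arrays. Its log2 difference was -0.37 (95% confidence interval -0.62 to -0.13), and it was not called. The next read 9.32, 9.38 and 9.24 in GFP-KLF2pos against 9.999, 9.95 and 9.69 in GFPpos arrays, a log2 difference of -0.57 (-0.80 to -0.33), and it was the only member probe set called lower. These 2 probe sets are of the kinds marked on the array as able to bind related transcripts. Of the other 3, with log2 differences of -0.33, -0.25 and -0.07, the last had overlapping groups and the first 2 did not. The call was lost without GFP-KLF2pos replicate 1 or GFPpos replicate 1 or 2. When the replicate number was added to the fit as a block, 3 Tob2 probe sets were called lower instead of 1, where 9.53% of all probe sets were.

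**Figure D1:**
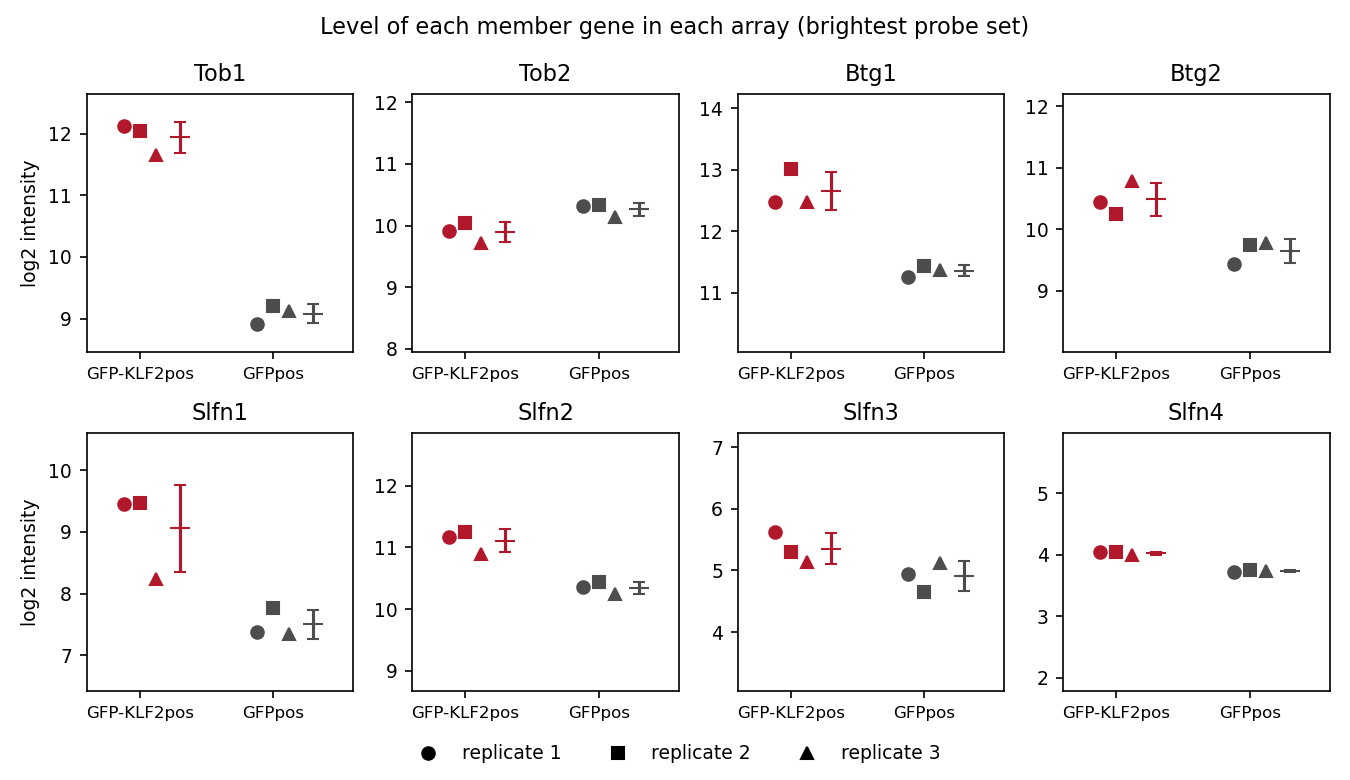
Log2 intensity of the brightest probe set of each member gene, for GFP-KLF2pos arrays (red) and GFPpos arrays (grey), with the replicate number shown by the marker and the mean ± SD beside the points. All panels span the same range of log2 units, so that the 2.86 of Tob1 can be set against the -0.37 of Tob2 and the 0.30 of Slfn4.

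Btg1, a partner of the CNOT7 and CNOT8 deadenylases and of the methyltransferase PRMT1, was higher in GFP-KLF2pos cells at each of its 3 probe sets. The brightest read 12.47, 13.01 and 12.47 in GFP-KLF2pos against 11.26, 11.44 and 11.37 in GFPpos arrays. The second read 12.51, 12.78 and 12.40 in GFP-KLF2pos against 11.25, 11.49 and 11.47 in GFPpos arrays. The dimmest read 7.86, 8.08 and 7.75 in GFP-KLF2pos against 6.22, 6.11 and 6.43 in GFPpos arrays. The groups did not overlap at any of them, and the replicate 2 array of GFP-KLF2pos was the highest at all 3. The log2 differences were 1.29 (95% confidence interval 0.94 to 1.65), 1.16 (0.88 to 1.44) and 1.64 (1.37 to 1.92), or 2.45-, 2.23- and 3.13-fold. All were called, also with any single array left out.

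Btg2 is the paralogue of Btg1 and in mouse cells is induced by p53 and by growth factors. Its brightest probe set read 10.44, 10.24 and 10.78 in GFP-KLF2pos and 9.43, 9.75 and 9.79 in GFPpos arrays. The second read 9.43, 9.16 and 9.92 in GFP-KLF2pos and 8.61, 8.70 and 8.95 in GFPpos arrays. In contrast to Btg1, GFP-KLF2pos replicate 2 was the lowest and replicate 3 the highest of its group at both. The log2 differences were 0.83 (95% confidence interval 0.47 to 1.20) and 0.75 (0.30 to 1.19), under 2-fold. Both were called, also with the replicate block. The brightest was not called without GFP-KLF2pos replicate 1 or GFPpos replicate 1 or 2. With single arrays left out, the second was called only without GFP-KLF2pos replicate 2. By pair of arrays with the same number, the brightest differed by 1.01, 0.49 and 0.99.

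Slfn1, the founding member of the Schlafen family, was higher in GFP-KLF2pos cells at its bright probe set, with the widest spread among the members. It read 9.46, 9.47 and 8.24 in GFP-KLF2pos replicates 1, 2 and 3, against 7.38, 7.77 and 7.35 in the GFPpos arrays. Replicate 3 was thus the lowest GFP-KLF2pos array by a wide margin, yet it lay above every GFPpos array. The log2 difference was 1.56 (95% confidence interval 0.81 to 2.31) with all arrays and 1.97 without GFP-KLF2pos replicate 3. It was called in the full fit, with the replicate block and without that array, but not without any other single array. The second Slfn1 probe set lay under the lower quartile of the arrays, at 3.10, 2.96 and 3.10 in GFP-KLF2pos and 3.36, 3.58 and 3.30 in GFPpos cells. Its log2 difference of -0.36 (-0.58 to -0.13) has the opposite sign, without overlap between groups, and was not called in the full fit. It was called lower under median centring, an intensity trend with robust prior and array weights. As the mean of both probe sets, the gene differed by 0.60 and was not called.

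Slfn2 was bright in both groups and differed by less, with little spread. It read 11.17, 11.25 and 10.90 in GFP-KLF2pos and 10.36, 10.44 and 10.24 in GFPpos arrays. The groups did not overlap, and replicate 3 was the lowest array of each. The log2 difference was 0.76 (95% confidence interval 0.50 to 1.02), or 1.69-fold, and it was called with any single array left out.

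Slfn3 was dim, between the lower quartile and the median of the arrays, and Slfn4 was dimmer. Slfn3 read 5.63, 5.30 and 5.13 in GFP-KLF2pos and 4.95, 4.65 and 5.13 in GFPpos arrays, and its groups were separated by less than 0.01 at replicate 3. Its log2 difference of 0.45 (95% confidence interval 0.07 to 0.83) was not called. Slfn4, which in mouse macrophages is known to be induced by interferon, read 4.04, 4.04 and 4.00 in GFP-KLF2pos and 3.72, 3.74 and 3.73 in GFPpos arrays. The log2 difference of 0.30 (0.14 to 0.45) was called in the full fit, but not with any array left out, and both levels lie under the lower quartile of the arrays. As Slfn4 is best known from myeloid cells, the 10 myeloid markers are given beside it: their summed level was 8.84 to 8.94 in GFP-KLF2pos and 8.63 to 8.69 in GFPpos arrays on the log2 scale, and none was called, but 9 of the 10 had a higher mean in GFP-KLF2pos cells (median log2 difference 0.16). Cybb differed by 0.56 (adjusted p = 0.063) and Cd68 by 0.43 (0.049), both without overlap between groups, whereas Lyz2 differed by -0.01. The part of such cells in the Slfn4 difference was not tested.

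Over all 17 member probe sets, 10 were called higher and 1 lower. Of all probe sets 4.76% were called higher and 6.39% lower. At least 2-fold and called were 5 of the 17 (the brightest of Tob1, the bright probe set of Slfn1 and the 3 of Btg1), against 1.48% of all. The groups did not overlap with GFP-KLF2pos higher at 11 and with GFP-KLF2pos lower at 5 of the 17, where 12.5% and 17.3% of all probe sets did so. Since the genes were chosen on this contrast, nothing follows from these shares. Counted once per gene by the brightest probe set, 6 of 8 genes were called higher, 0 lower and 2, Tob2 and Slfn3, were not called, where 6.22% of all genes were called higher and 8.35% lower.

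**Figure D2:**
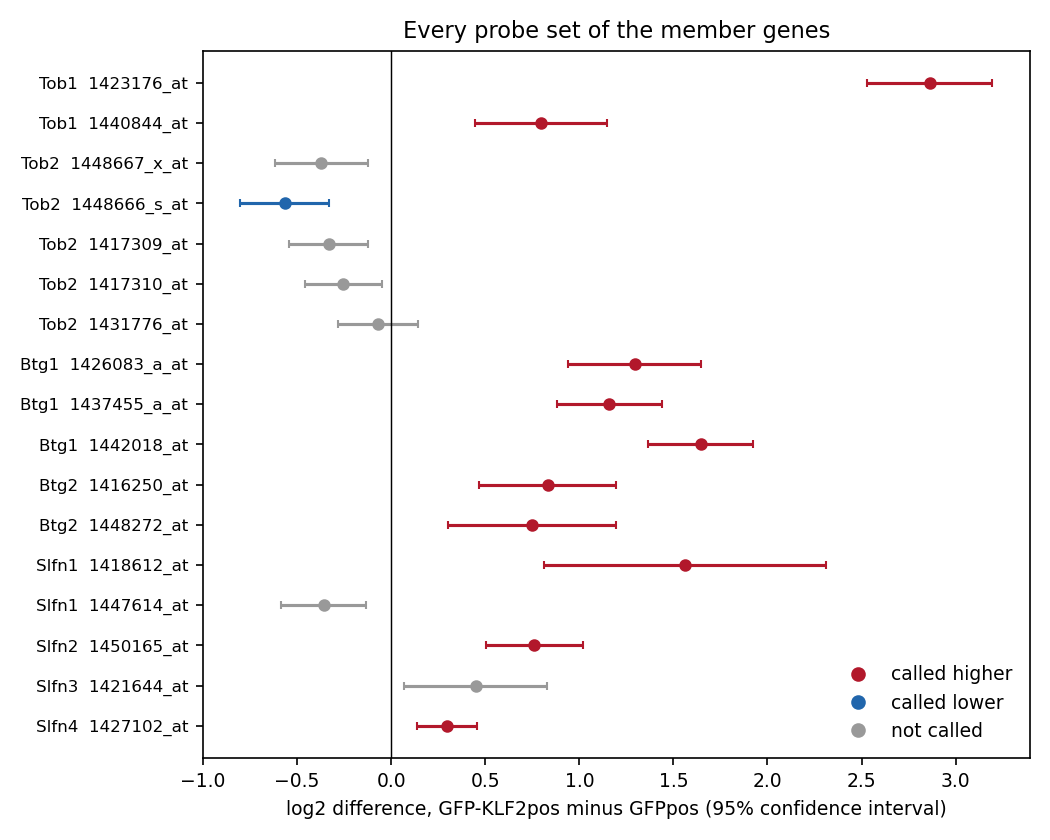
Log2 difference of GFP-KLF2pos minus GFPpos with its 95% confidence interval for all 17 member probe sets, listed by gene from the brightest to the dimmest. Of these, 10 are called higher (red), 1 is called lower (blue) and 6 are not called (grey). The 5 Tob2 probe sets and the dim Slfn1 probe set lie left of 0.

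The 4 Schlafen members stand side by side on mouse chromosome 11, where RefSeq on GRCm38.p6 lists Slfn8, Slfn2, Slfn1, Slfn4, Slfn3 and Slfn14 as consecutive protein-coding genes. Tob1 lies on the same chromosome between Spag9 and Wfikkn2, and is no neighbour of them. Schlafen genes that are not members, together with Btg4 and Slfnl1, were tested with limma as a list of 7 genes, of which 6 were measured and Slfn14 was not. None was called (0 at an adjusted p under 0.046, 2 at an unadjusted p under 0.05), and the median log2 difference of the 6 was 0.09, against -0.01 for all genes. The share of all genes at the unadjusted level is not given here, so no excess can be read from the 2. Slfn8, one of the long Schlafens with a helicase-like domain, read 8.97, 8.56 and 7.55 in GFP-KLF2pos and 7.54, 7.30 and 7.71 in GFPpos arrays. The groups overlapped through GFP-KLF2pos replicate 3 (log2 difference 0.84, adjusted p = 0.159). Slfn5 read 5.81, 5.07 and 4.67 in GFP-KLF2pos and 4.34, 4.27 and 4.50 in GFPpos arrays, without overlap (0.81, adjusted p = 0.0902). Without GFP-KLF2pos replicate 3 both were called, Slfn8 at 1.25 (adjusted p = 0.0093) and Slfn5 at 1.07 (0.0296). Slfn9, Slfn10-ps, Slfnl1 and Btg4 had log2 differences of 0.05, -0.27, 0.06 and 0.12, with overlapping groups.

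In GFP-KLF2pos replicate 3 interferon-stimulated genes were also lower than in replicates 1 and 2, and the Schlafen values are therefore given beside them. The median of 21 such genes was 9.43, 9.23 and 7.03 in GFP-KLF2pos replicates 1, 2 and 3, against 6.81, 6.36 and 6.29 in the GFPpos arrays. Replicate 3 was the lowest GFP-KLF2pos array for 20 of the 21, and for 33.5% of all genes. Replicate 3 minus the mean of replicates 1 and 2 had a median of -1.60 over the 21 genes. The same log2 difference was -1.22 for Slfn1, -1.22 for Slfn8, -0.77 for Slfn5, -0.33 for Slfn3, -0.31 for Slfn2, -0.07 for Slfn9 and -0.04 for Slfn4. For Slfn10-ps, Slfnl1 and Btg4 it was 0.06, -0.04 and 0.01. Btg2 also went the other way, at 0.44, while Tob1 was at -0.44, Btg1 at -0.27 and Tob2 at -0.26. Whether interferon had a part in the Schlafen differences was not tested. Ifit1 (log2 difference 3.32), Rsad2 (2.63) and Zbp1 (2.60), all of them induced by interferon, had the largest differences among the genes of the list that were called, 7 of 21, while 0 fell and 14 did not pass, with a median of 1.63. Usp18 (3.13, adjusted p = 0.0649) and Rtp4 (2.80, 0.13) differed by more than Rsad2 but did not pass in the full fit. Both passed with the replicate block. With single arrays left out they passed only without GFP-KLF2pos replicate 3, at 4.31 (limma adjusted p = 0.000726) and 4.13 (0.00242). With the replicate block 14 rose, without GFP-KLF2pos replicate 3 18 were called, and without any other single array 2 or 3 were called. Ifit1 and Rsad2 passed only without GFP-KLF2pos replicate 3 when single arrays were left out, whereas Zbp1 passed in all 6 of these fits.

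**Figure D3:**
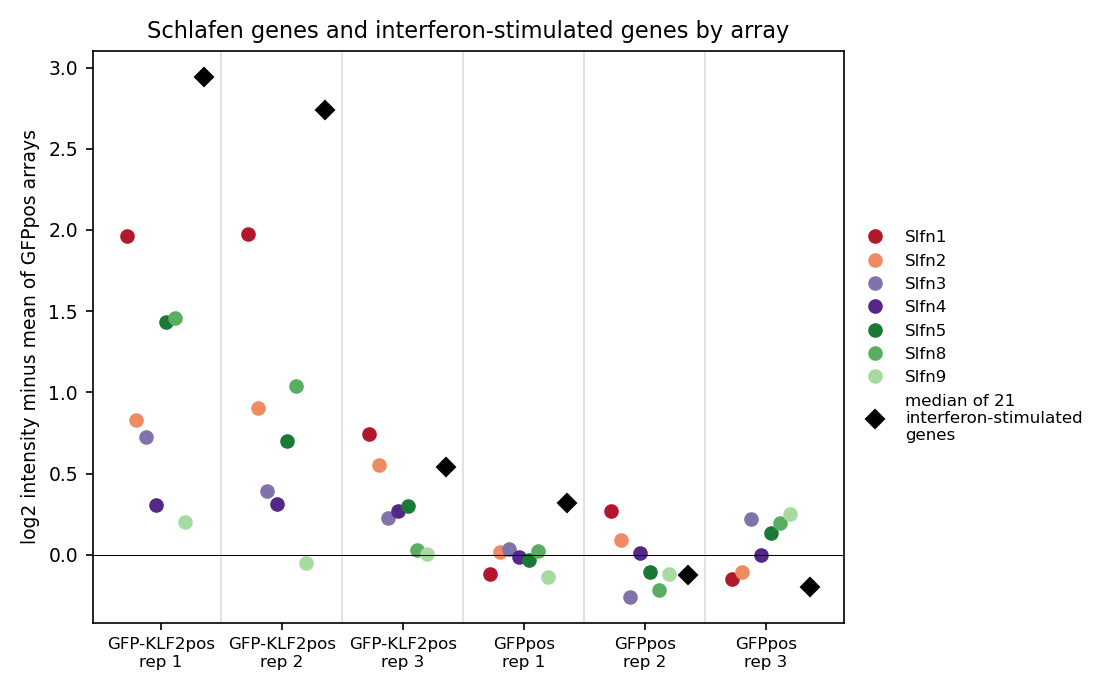
Log2 intensity minus the mean of the GFPpos arrays for 7 Schlafen genes (circles) and for the median of 21 interferon-stimulated genes (black diamonds), in the GFP-KLF2pos arrays and then the GFPpos arrays. In GFP-KLF2pos replicate 3 the black diamond, Slfn1, Slfn5 and Slfn8 lie closer to 0 than in replicates 1 and 2.

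An interferon response motif, searched as 2 copies of TTTC separated by any 2 bases on both strands, is present upstream of Slfn5, Slfn8 and Slfn9 and of 3.0% of all windows. An exact match is absent from the windows of the 9 members, Slfn1 and Slfn2 among them. Sequences close to the motif were not counted, so an interferon response element may still be present. Slfn5, Slfn8 and Slfn9, which have the motif, had log2 differences of 0.81, 0.84 and 0.05. Slfn1, Slfn2, Slfn3 and Slfn4, which lack an exact match, had 1.56, 0.76, 0.45 and 0.30 at their brightest probe sets. Whether the motif had a part in any of these differences was not tested.

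**Figure D4:**
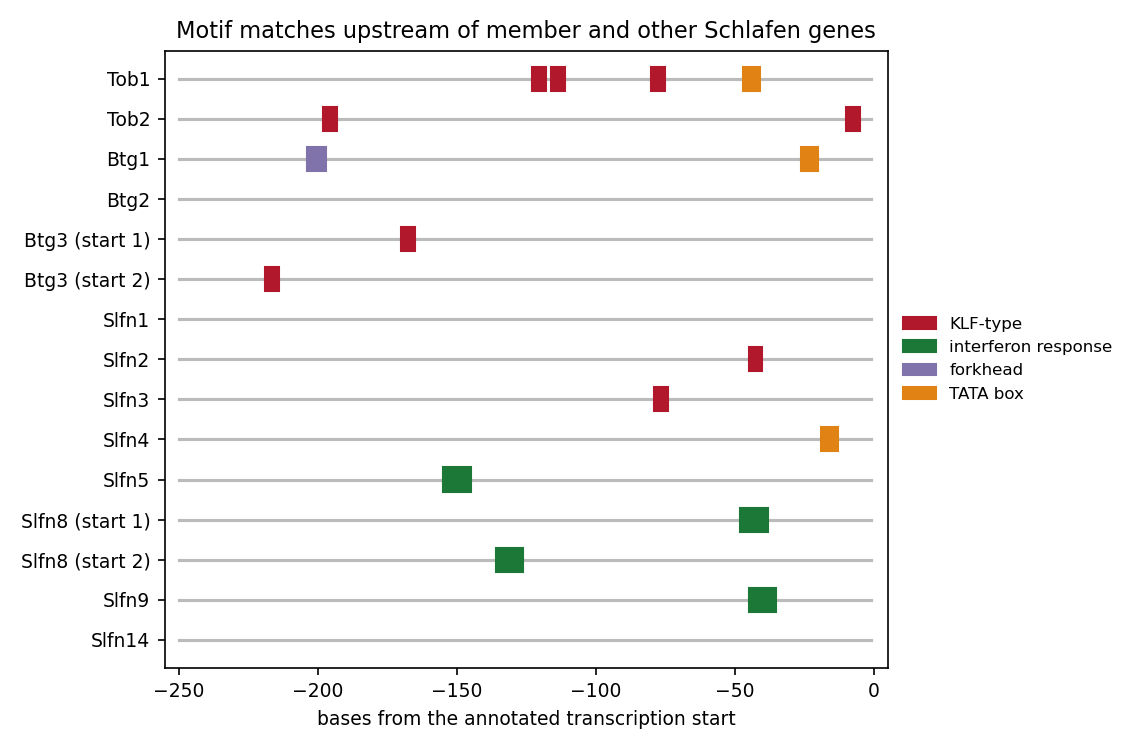
Positions of 4 motifs in the 250 bases before the annotated start of each member and of other Schlafen genes of the cluster, with a line per window and boxes drawn to scale. Tob1 has 3 KLF-type matches and Tob2 has 2, while the interferon response motif is drawn only for Slfn5, Slfn8 and Slfn9.

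TOB and BTG proteins act through the deadenylation machinery. Of 19 measured genes of deadenylation, many of them Cnot subunits, 0 rose, 3 fell and 16 did not pass the test, with a median log2 difference of -0.11. For this and the other lists the background is that 6.22% of all genes were called higher and 8.35% lower. With the replicate block 2 rose, Noct (0.29, adjusted p = 0.0424) and Tnks1bp1 (0.34, 0.0364), and 3 fell. At an unadjusted p under 0.05 there were 10 of the 19, in both directions. The share of all genes at that level is not given here, so no excess can be read from this count. Pabpc4, a poly(A)-binding protein, fell by 0.75 on the log2 scale (adjusted p = 0.00419), with 11.22, 11.21 and 11.05 in GFP-KLF2pos and 12.04, 11.92 and 11.78 in GFPpos arrays. Cnot11 and Cnot2, structural subunits of CCR4-NOT, had log2 differences of -0.33 (adjusted p = 0.0375) and -0.29 (0.0391), but neither passed with any array left out. The catalytic subunits that bind the BTG domain, Cnot7 and Cnot8, had log2 differences of -0.04 (adjusted p = 0.84) and -0.20 (0.146).

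Among 10 genes for reported partners of TOB and BTG proteins 3 rose, 1 fell and 6 did not pass (median 0.10). Ago2, the Argonaute protein of miRNA silencing, rose by 0.87 (adjusted p = 0.00127), and Cpeb4, an mRNA-binding protein of the CPEB family, members of which TOB proteins link to CCR4-NOT, by 0.85 (0.0117). Cpeb4 read 10.04, 10.57 and 10.16 in GFP-KLF2pos and 9.26, 9.46 and 9.51 in GFPpos arrays. Prmt1, the arginine methyltransferase that binds BTG1 and BTG2, had a log2 difference of -0.66 (adjusted p = 0.00537), with 11.87, 11.67 and 11.69 in GFP-KLF2pos and 12.49, 12.39 and 12.32 in GFPpos arrays. All 3 passed with each single array left out. Smad2 and Smad4, through which TOB1 was reported to act in T cells, had log2 differences of -0.04 and 0.07 (adjusted p = 0.86 and 0.658). Smad3, of the same family, read 9.49, 8.99 and 8.84 in GFP-KLF2pos and 8.70, 8.43 and 8.24 in GFPpos arrays, without overlap (0.65, adjusted p = 0.0648), and was called with the replicate block (0.00498).

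Of 18 measured regulators of T cell quiescence 5 rose, 1 fell and 12 did not pass the test, with a median log2 difference of 0.10. Vsir, an inhibitory immunoglobulin receptor, rose by 0.91 (adjusted p = 0.0294), Txnip, a thioredoxin-binding regulator of glucose uptake, by 0.90 (0.0096), and the forkhead factor Foxo1 by 0.89 (0.00202). Vsir passed only without GFP-KLF2pos replicate 2 or GFPpos replicate 3 when single arrays were left out, whereas Txnip and Foxo1 passed in all 6 of these fits. Without GFPpos replicate 1 or 2, 3 genes of the list were called.

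Btg2 is a known p53 target. Of 16 other measured p53 targets 2 rose, 2 fell and 12 did not pass (median -0.11). Of all genes 6.22% were called higher and 8.35% lower. Whether p53 had a part in the Btg2 difference was not tested. Perp, a membrane protein of desmosomes, rose by 1.66 (adjusted p = 0.0107), though not without GFPpos replicate 2 (0.0464). Cdkn1a, the cell cycle inhibitor p21, rose by 0.65 (0.0355), but with single arrays left out it passed only without GFPpos replicate 2. Ccng1, which encodes cyclin G1, had a log2 difference of -0.55 (0.0413) and passed in 1 of the 6 fits, that without GFPpos replicate 3. With single arrays left out 1 to 7 genes of the list were called, and 8 with the replicate block.

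**Figure D5:**
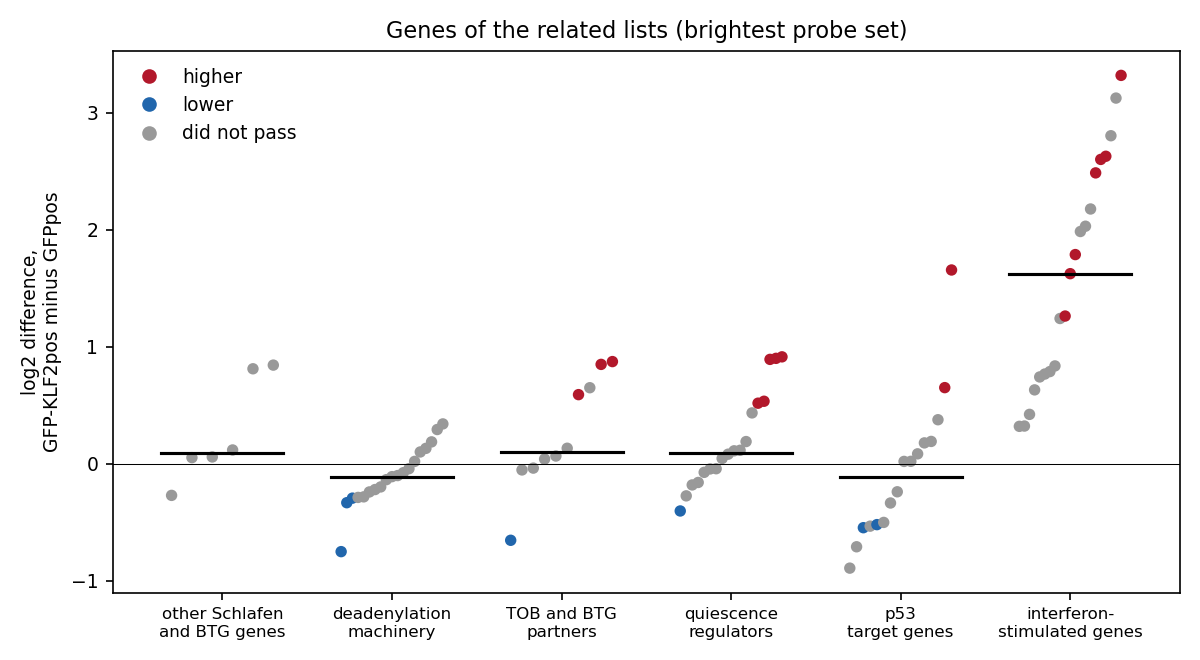
Log2 difference of GFP-KLF2pos minus GFPpos for each measured gene of 6 lists related to the members, by the brightest probe set, with genes that rose in red, genes that fell in blue and the others in grey. The black bars are the medians, 0.09, -0.11, 0.10, 0.10, -0.11 and 1.63 from left to right.

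The genes whose levels ran most like those of the members over the 6 arrays were sought among 10510 genes with a mean of at least 6, for the 5 members that spanned at least 1 log2 unit. As 3 arrays stand on each side of the contrast, a high Pearson r mainly reflects the difference between groups, and it is given as a description. Tob1 was closest to Serpinb9, an inhibitor of granzyme B (r = 0.9985, log2 difference 2.85), Ms4a6d (0.9985, 2.52) and Gse1 (0.9984, 0.93). Btg1 was closest to Nin (0.9986, 1.11), Brox (0.9983, 0.36) and Atp2b1, a plasma membrane calcium pump (0.998, 0.85). Btg2 was closest to Baz2a (0.996, 0.17), Samsn1 (0.9929, 0.36) and Pim3 (0.9922, 0.74), which like it were highest in GFP-KLF2pos replicate 3. Slfn1 was closest to Epsti1 (0.9969, 0.73), Pak6 (0.9964, 1.07) and Churc1 (0.9963, 0.08). Slfn2 was closest to Il6ra, the alpha chain of the IL-6 receptor (0.9983, 3.40), Ube2d3 (0.998, 0.21) and Epb41l4b (0.9966, 2.05). No gene was shared between these 5 sets of 3.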

How the data were processed

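RNA of sorted GFP-KLF2pos and GFPpos cells (3 arrays each) was hybridised to Affymetrix mouse genome arrays. The authors normalised the arrays with RMA and deposited 1 linear intensity per probe set and array; the software version is not given in the sources used here. RMA shares its normalisation among arrays, so a global shift in RNA content cannot be seen. Log2 of the deposited intensity was taken here, 64 control probe sets of 45101 were removed, and the other 45037 were fitted with limma 3.58.1 in R 4.3.3 (lmFit, eBayes, Benjamini-Hochberg adjustment). A call is an adjusted p under 0.046, which the study's methods print as a percentage (0.00046 as a fraction was an alternative). Python 3.11.15 with pandas 2.3.3 and matplotlib 3.10.9 read promoter windows and drew the figures.

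Of the 45037 probe sets 34945 are annotated to 1 gene, 932 to several and 9160 to none, and only those with 1 gene were named. A gene was represented by its brightest probe set. By rule the text names every member probe set, up to 3 genes with the largest differences among those called in each list, all other Schlafen and BTG genes, and the 3 genes most like each member that averaged at least 6 and spanned at least 1 log2 unit. Cnot7, Cnot8, Noct, Tnks1bp1, Smad2, Smad3, Smad4, Usp18, Rtp4, Cd3d, Cd5, Cybb, Cd68 and Lyz2 fall outside it and were picked with their values already seen. The members and lists were chosen with earlier results of these data known. The script was tested on simulated data. The labels number the replicates 1 to 3 in both groups. Deviations of same-numbered arrays from their group means correlated at 0.325, 0.442 and 0.466, and of others at -0.38 to 0.058. The numbers were thus taken to pair the arrays, on the evidence of the data. The main fit still left this pairing out, since the study's model had only a constant per replicate group. Intervals and calls are therefore unpaired unless the replicate block is named. Alternatives were the replicate block, other thresholds, centring, quantile normalization, an intensity trend with robust prior, array weights, removal of dim probe sets (mean under 5), the mean of a gene's probe sets, removal of probe sets that can cross-hybridise and leaving out each array. With 3 against 3 arrays an exact two-sided permutation test cannot go below 0.1, and precision is limited by how few arrays there are.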

Additional observations from a re-analysis of the deposited data

How the results depend on the processing

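All 170 differences of member probe sets under the replicate block, median centring, quantile normalization, array weights and each array left out moved by less than 1 SD from the values given. For the replicate block and for left-out arrays this was fixed in advance by the design. The block leaves each difference unchanged, and leaving out 1 array of a group cannot move it by 1 SD. Median centring and quantile normalization could move it only a little, since the arrays were already normalised and had medians of 5.64 to 5.67. The small movement is therefore no sign of stability under these settings. Taken as the mean of its probe sets, Tob2 had a log2 difference of -0.32 and was called lower. With probe sets that can cross-hybridise removed, Tob2 had a log2 difference of -0.33 and was not called. The counts of calls moved more. At an adjusted p under 0.00046 (limma), 51 probe sets were higher and 4 lower, 31 genes higher and 3 lower, 1 member probe set higher and 0 lower, and 0 genes of the partner, deadenylation, interferon, p53 and quiescence lists were called. With at least 2-fold required, 667 probe sets were higher and 202 lower, 405 genes higher and 130 lower, 5 member probe sets higher and 0 lower, and 0 partner, 0 deadenylation, 1 p53 and 0 quiescence genes were called. With the replicate block, 3 member probe sets were lower, and 5 deadenylation, 14 interferon-stimulated and 8 p53 genes were called; the member probe sets called higher stayed at 10. Quantile normalization left 1 deadenylation gene, and median centring gave 3 member probe sets lower. The intensity trend gave 3 member probe sets lower and 3 interferon-stimulated genes. Array weights gave 4 member probe sets lower and 5 deadenylation, 17 interferon-stimulated and 1 other Schlafen or BTG gene (Slfn5). The dim Slfn1 probe set was among those called lower under median centring, the intensity trend and array weights. Without dim probe sets, 2 member probe sets were lower and 5 deadenylation genes were called. The cause of these changes was not tested.

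With each array left out in turn, 1045 to 1949 probe sets were higher and 1089 to 2078 lower, and 556 to 1041 genes higher and 591 to 1132 lower. Among member probe sets 5 to 8 were called higher and 0 to 1 lower. The lists gave 1 deadenylation gene in each case, 4 partners in each case, 2 to 18 interferon-stimulated, 0 to 2 other Schlafen or BTG, 1 to 7 p53 and 3 to 5 quiescence genes. Levels near the lower quartile of the arrays, as for Slfn4 and the second Slfn1 probe set, carry little signal.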
